A study of Mus musculus with 2 samples.

Results

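The early myocytes described here are 135 cells of the E11.5 library that held at least 20 UMIs of Myog, fewer than 10 UMIs of Acta1 and fewer than 3 UMIs of Top2a and Mki67 together. A UMI is a random tag that lets the copies of 1 captured transcript be counted once. These 135 cells were 1.41% (95% exact Clopper-Pearson interval 1.18% to 1.66%) of the 9595 E11.5 cells with at least 200 and fewer than 6500 genes and under 15% mitochondrial UMIs. The limit on Myog was met by 356 cells, of which 222 also met the limit on Acta1. The members held a median of 14310 UMIs and 3551 genes, and 2055684 UMIs in all. The rule used the counts of Myog, Acta1, Top2a and Mki67, so the levels of these genes chose the members and are given as a description only.

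The study profiled inter-limb somites of C57BL/6 wild-type mouse embryos at E9.5 and E11.5, dissociated into single cells and captured on the 10x Chromium platform, with 3 embryos pooled into 1 library per stage. The E9.5 library held 149368952 UMIs in 10121 barcodes and the E11.5 library 136655763 UMIs in 10167 barcodes, 30 of which occurred in both, among them 1 barcode of the 135 members. With 1 library per stage no difference could be tested, and cells are not replicates. The level of a gene in a class is its summed UMIs per 1000000 UMIs of that class (UPM), with exact 95% intervals that cover counting error only.

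Skeletal muscle of the trunk forms from Pax3-expressing and Pax7-expressing progenitors of the dermomyotome, which switch on Myf5 and Myod1 as they commit to the muscle lineage. Myogenin, encoded by Myog, is the basic helix-loop-helix factor of terminal differentiation: cells that express it withdraw from the cell cycle, build contractile proteins and fuse into multinucleated fibres. Myocyte fusion needs a pair of membrane proteins of muscle, myomaker, encoded by Mymk, and the micropeptide myomixer, encoded by Mymx.

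The members were compared with 273 committed cells, defined by at least 2 UMIs of Myod1 and fewer than 5 of Myog, and with the 112 of these that held fewer than 3 UMIs of Top2a and Mki67 (non-cycling committed cells). They were also set beside 87 cells with the same Myog and Acta1 limits but at least 3 UMIs of Top2a and Mki67 (cycling Myog cells) and 189 cells with at least 10 UMIs of Acta1 (Acta1 myocytes), of which 134 held at least 20 UMIs of Myog and 3 also met the committed rule. The median depths were 16552 UMIs in committed cells, 13969 in non-cycling committed cells, 25865 in cycling Myog cells and 17314 in Acta1 myocytes.

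The members carried muscle markers. All 13 genes of a muscle identity list were detected, with a summed level of 12135 UPM (11985 to 12287) against 1806 UPM in committed cells and 128 UPM in 73 endothelial cells of the same library (at least 1 UMI each of Cdh5 and Pecam1, median 18468 UMIs). In 121 neural cells of that library (at least 2 UMIs of Sox2 and 1 of Pax6 and Sox1 together) the list stood at 1117 UPM, with Mylpf as its most abundant gene. Myog, which the rule used, ranged from 21 to 160 UMIs per member with a median of 66, and no member was without Myod1, which ranged from 2 to 51 UMIs with a median of 15. Acta1 was at 0 in 94 of the 135 members, and Top2a and Mki67 were both at 0 in 93.

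The other marker genes were counted in nearly every member. Gm7325, the symbol under which the files list Mymx (chr17:45600971-45602102 on GRCm38, protein coding), ranged from 0 to 41 UMIs per member with a median of 16, whereas the highest committed cell held 3 UMIs. Gadd45g, a stress-inducible regulator of cell cycle arrest (chr13:51846678-51848468), ranged from 0 to 46 UMIs with a median of 9, and committed cells from 0 to 10. Rbm24, an RNA-binding regulator of muscle splicing (chr13:46418434-46431095), ranged from 0 to 23 UMIs with a median of 8, and committed cells from 0 to 8. The ranges overlapped for each of these genes, and each of the committed medians was 0.

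Within 250 bases before their RefSeq start sites (GRCm38.p6), Myog, Gadd45g and Rbm24 hold E-boxes, the CANNTG sequence that MyoD and myogenin are known to bind. The promoter set used held no entry for Mymx or Mymk. The sequences are printed because Myod1 and Myog are both counted in every member, and capitals mark each CANNTG; the stretch of Chrna1, the muscle acetylcholine receptor subunit described below, was added after its values were seen.
Myog: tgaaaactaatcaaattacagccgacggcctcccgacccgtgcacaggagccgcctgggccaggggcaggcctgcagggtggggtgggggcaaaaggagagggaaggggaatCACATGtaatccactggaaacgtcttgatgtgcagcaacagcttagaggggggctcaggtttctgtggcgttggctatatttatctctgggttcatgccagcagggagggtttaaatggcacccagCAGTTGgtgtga
Gadd45g: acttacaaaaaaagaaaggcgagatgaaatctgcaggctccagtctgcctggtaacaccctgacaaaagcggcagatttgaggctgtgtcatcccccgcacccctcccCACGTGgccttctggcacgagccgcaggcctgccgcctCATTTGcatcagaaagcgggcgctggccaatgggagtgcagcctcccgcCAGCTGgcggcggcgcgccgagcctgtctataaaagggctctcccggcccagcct
Rbm24: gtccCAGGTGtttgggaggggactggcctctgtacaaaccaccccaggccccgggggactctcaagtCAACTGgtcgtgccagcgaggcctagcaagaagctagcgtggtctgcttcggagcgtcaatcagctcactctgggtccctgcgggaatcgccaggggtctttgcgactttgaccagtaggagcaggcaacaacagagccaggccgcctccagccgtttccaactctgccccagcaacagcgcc
Chrna1: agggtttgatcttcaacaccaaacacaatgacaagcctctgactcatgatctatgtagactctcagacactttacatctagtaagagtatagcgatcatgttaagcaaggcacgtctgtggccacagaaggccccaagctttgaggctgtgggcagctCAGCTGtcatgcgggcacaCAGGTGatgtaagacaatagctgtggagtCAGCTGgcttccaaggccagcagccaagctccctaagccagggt
These stretches lie at chr1:134289754-134290003 (plus strand), chr13:51846425-51846674 (plus), chr13:46418050-46418299 (plus) and chr2:73580339-73580588 (minus), and hold 2, 3, 2 and 3 matches to CANNTG. Both motifs read the same on either strand. CAGCTG, a form of CANNTG, occurred 1 time in the Gadd45g stretch and 2 times in that of Chrna1. Of 32851 promoter stretches of the same length in the RefSeq table, 66.2% hold at least 1 CANNTG, 31.8% at least 2 CANNTG, 4271 stretches at least 1 CAGCTG and 1.26% at least 2 CAGCTG. A match describes the sequence and not a bound site.

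Compared with committed cells, 418 of 6746 genes with at least 100 UMIs in both classes together were at least 2-fold higher in the early myocytes (6.2%) and 810 at least 2-fold lower (12%). Against the non-cycling committed cells, 339 of 4412 genes were higher (7.68%) and 242 lower (5.49%), so that lower genes outnumbered higher ones against the first reference and not against the second, where fewer genes were tested. The classes were cut on Myog and on the cycling genes, and these counts describe them without a test. The median log2 ratio over 6741 genes, leaving out those of the rules, was -0.16, so that a gene at 0 on this scale stood slightly above the typical gene.

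Among genes of the surface lists, 23 of 77 tested were at least 2-fold higher in the early myocytes and 19 lower, beside 6.2% and 12% of all genes. Against the non-cycling committed cells 21 and 4 of 49 were, beside 7.68% and 5.49%. The proteins of some, such as Stac3 and Atp2a1 of the ion channel and coupling list, are not at the cell surface. Together the lists hold 301 genes, and some of the higher ones, such as Gm7325 with 17 and 2036 UMIs, passed the limit of 100 UMIs through the members alone. Gm7325 had the highest log2 ratio of the genes tested against all committed cells, 8.20 (7.52 to 8.98), with 3.36 UPM in committed cells and 990.4 UPM in the members. As a mean over cells its log2 ratio was 5.99, and the highest committed cell stood at 3610 UPM of Gm7325. Against the non-cycling committed cells Myh3, an embryonic myosin, stood above Gm7325 (7.72 and 7.57). Tmem8c, the files' symbol for Mymk (chr2:27061636-27072179, protein coding), stood at 10.7 UPM (8.02 to 13.9) and 306 UPM (283 to 331), a log2 ratio of 4.84. Cd82, a tetraspanin, held 43 UMIs in committed cells and stood at 160.0 UPM in the members (log2 ratio 4.23, 3.77 to 4.73), and was lower again in Acta1 myocytes (46.4 UPM). Of a list of 20 fusion and fusion-linked genes, 8 had at least 100 UMIs, of which these 3 were higher and Ptgfrn, Kirrel and Adgrb3 were at least 2-fold lower. Against the non-cycling committed cells 5 of the list had enough UMIs, 3 of them higher and 0 lower, and Ptgfrn, Kirrel and Adgrb3 fell under the 100 UMIs needed there.

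The subunits of the muscle acetylcholine receptor, through which motor axons excite the fibre, were counted in these cells, which the rule had limited to low Acta1. Chrna1, the alpha subunit, held 3 UMIs in all committed cells (0.593 UPM) and 120.2 UPM in the early myocytes (log2 ratio 7.66, 6.10 to 9.95). It was found in 58.5% of the members, in 1.10% of committed cells and in 1.37% of endothelial cells. Chrng, the embryonic gamma subunit, stood at 3.16 and 89.0 UPM, and Chrnb1, the beta subunit, at 12.1 and 69.1 UPM. Rapsn, which clusters the receptor, was the one gene of the 4 tested of this list that stayed under 2-fold, with 61.1 and 119 UPM. The list holds 11 genes, and of all genes tested 6.2% were at least 2-fold higher. Chrna1, Chrng and Chrnb1 passed the limit of 100 UMIs through the members alone, so the count describes the genes that passed and not the list. In Acta1 myocytes Chrna1 was higher than in the members by a log2 ratio of 0.95 (0.74 to 1.16), while the ratio of Chrnb1, 0.18, had an interval that holds 0 (-0.12 to 0.48).

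Of 23 genes of ion channels and excitation-contraction coupling, 6 had at least 100 UMIs, some through the members alone, and 4 of these were at least 2-fold higher. Stac3, an adaptor of the calcium channel, stood at 1.19 UPM in committed cells and 77.3 UPM in the members, Atp2a1, the calcium pump of fast fibres, at 4.75 and 208 UPM, and Ryr1, the calcium release channel, at 11.1 and 60.8 UPM. Adhesion genes lay on both sides. Of 30 genes of Ig-type adhesion and guidance receptors 6 were at least 2-fold higher and 10 lower, of 7 cadherins 1 and 2, and of 9 integrin and dystroglycan genes 2 and 1, beside 6.2% and 12% of all genes. Against the non-cycling committed cells the Ig-type counts were 5 and 3 of 18, beside 7.68% and 5.49% of all genes. Jam3, a junctional adhesion molecule, stood at 62.7 and 279.7 UPM, Cdh15 (M-cadherin) at 105 and 351 UPM and Itga4, an integrin subunit, at 59.1 and 165 UPM, whereas Cdh2 (N-cadherin) stood at 62.5 and 19.5 UPM and Itgb1 at 117 UPM in both. Lower too were the sphingosine phosphate receptor S1pr3 (26.9 and 1.95 UPM), the protocadherin Pcdh19, the Hedgehog co-receptor Boc, and Efnb2 and Epha4, a ligand and a receptor of the ephrin system, whose log2 ratios lay between -3.79 and -2.58.

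**Figure D1:**
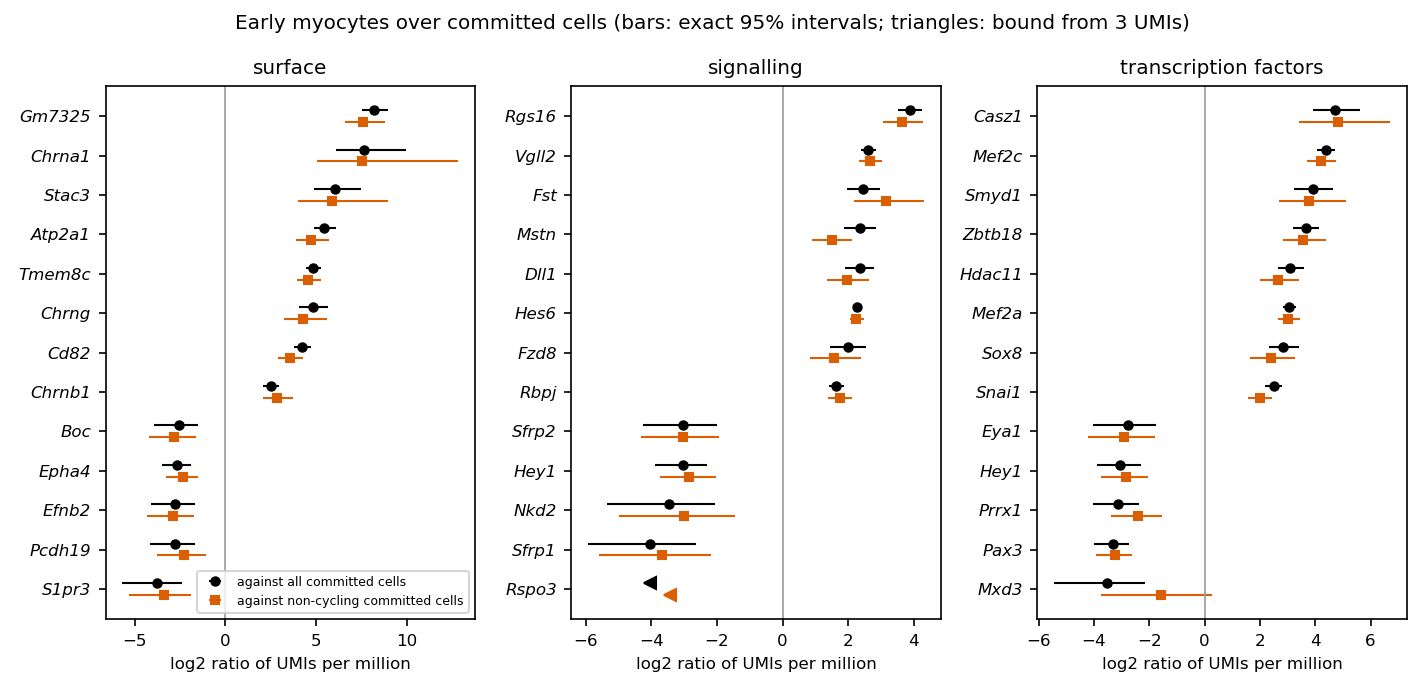
Log2 ratio of UPM (x axis) in early myocytes over committed cells for the 8 highest and 5 lowest genes of the surface, signalling and transcription factor lists (y axis). Black circles stand for all committed cells, orange squares for the non-cycling ones, bars for exact 95% intervals and triangles for bounds where the members held 0 UMIs; Gm7325 lies highest at 8.20, and Mxd3 is the gene whose interval reaches 0 against the non-cycling cells.

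Both fusion genes were counted together in most early myocytes. Of the 135 members, 112 (83.0%, 75.5% to 88.9%) held at least 1 UMI of Gm7325 and of Tmem8c, 15 held Gm7325 only, 4 held Tmem8c only and 4 held neither. In committed cells the same counts were 3, 10, 40 and 220 of 273, and in Acta1 myocytes 111, 2, 61 and 15 of 189. The state with Tmem8c only thus made up 2.96% of the early myocytes (0.813% to 7.41%) and 32.3% of the Acta1 myocytes (25.7% to 39.4%).

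Depth bears on such shares. When each cell was thinned to 5000 UMIs, which left out 2 members and 31 Acta1 myocytes, both genes were found in 63.2% of 133 members, 47.5% of 158 Acta1 myocytes and 35.6% of 87 cycling Myog cells, whose share before thinning was 65.5% at a median of 25865 UMIs. The early myocytes kept the highest share of these classes, and the other two changed places. Tmem8c alone was found in 5.26%, 39.2% and 1.15%. Endothelial cells held Gm7325 in 1.37% and Tmem8c in 0 of 73 cells, which allows a share of cells with a UMI of up to 4.11%, by 3 counts of the total, and is no limit on cells that express the gene. Among the members without an Acta1 UMI, 73 of 94 held both genes, and among those with 4 to 9 Acta1 UMIs, 18 of 18.

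**Figure D2:**
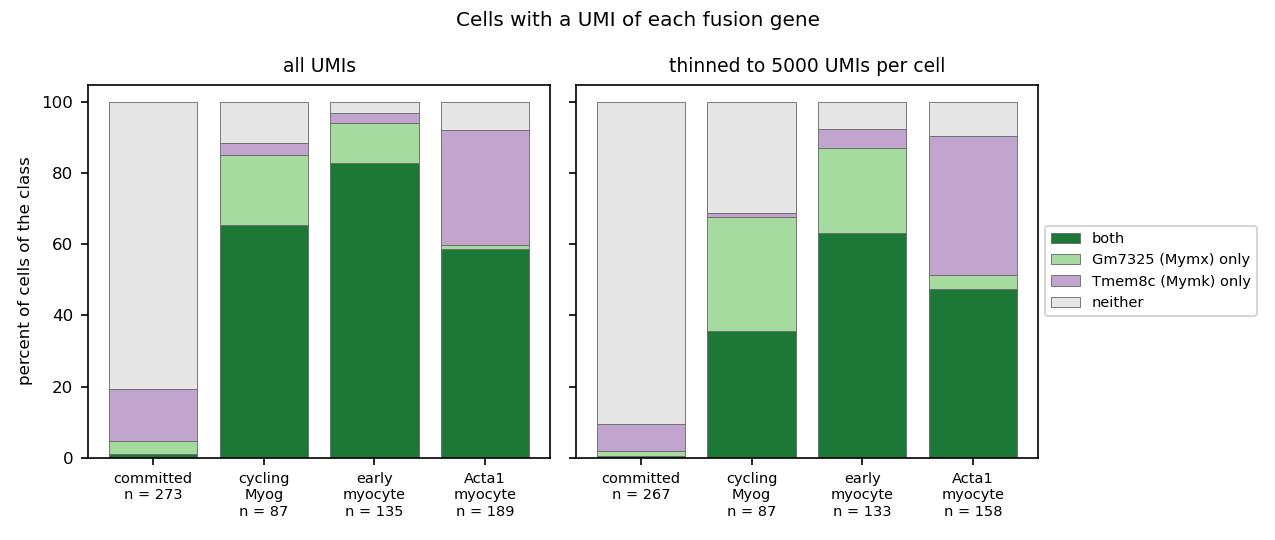
Percent of cells (y axis) with a UMI of both fusion genes, of 1 of them or of neither in the 4 classes, with all UMIs (left) and after thinning to 5000 UMIs per cell (right). Dark green, both genes, is the largest share in the early myocytes (83.0% and 63.2%), and purple, Tmem8c only, is widest in the Acta1 myocytes (32.3% and 39.2%).

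Of the signalling genes, 13 of 108 tested were at least 2-fold higher in the early myocytes and 30 lower, beside 6.2% and 12% of all genes. Against the non-cycling committed cells 9 and 8 of 67 were, beside 7.68% and 5.49%. The Notch pathway, in which a ligand on 1 cell activates a receptor on its neighbour and so holds progenitors back from differentiation, had genes on both sides. Dll1, a ligand, stood at 13.1 UPM in committed cells and 66.6 UPM (56.0 to 78.8) in the members, and the receptor Notch1 at 16.0 and 39.9 UPM. Hes6, a factor that counteracts Hes1, stood at 135 and 657 UPM, and Rbpj, the DNA-binding partner of activated Notch, at 56.4 and 176 UPM. The Notch target genes Hey1 (60.1 and 7.30 UPM) and Hes1 (106 and 37.5 UPM) were lower, as were the receptor Notch3 and the non-canonical ligand Dlk1 (154 and 61.3 UPM). In all, 5 of the 14 Notch genes tested were at least 2-fold higher and 4 lower.

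The highest signalling ratio was that of Rgs16, a GTPase-activating protein that shortens G protein signals, with 14.2 UPM in committed cells and 211 UPM (191 to 231) in the members, and 93.3% of the members held a UMI of it against 18.3% of committed and 24.7% of endothelial cells. Vgll2, a cofactor of TEAD proteins in muscle, stood at 50.4 and 309.9 UPM. Fst, an antagonist of activin and myostatin, stood at 9.49 and 52.1 UPM, Mstn, which encodes myostatin, a brake on muscle growth, at 10.7 and 55.0 UPM, and the Wnt receptor Fzd8 at 9.30 and 37.0 UPM. An antagonist and its target were thus both higher.

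Among Wnt genes, 7 of 15 tested were lower and 2 higher, beside 12% and 6.2% of all genes, whereas against the non-cycling committed cells 5 had enough UMIs to be tested and 0 were past 2-fold either way. Rspo3, a secreted enhancer of Wnt signals, held 121 UMIs in committed cells and 0 in the members, at least 16.4-fold lower by a floor of 3 UMIs over the class. The secreted antagonist Sfrp1 stood at 31.8 and 1.95 UPM, Sfrp2 at 31.6 and 3.89 UPM, and the intracellular antagonist Nkd2 at 21.4 and 1.95 UPM. Against the non-cycling committed cells, where these genes had too few UMIs to be tested, the log2 ratios were -3.67 for Sfrp1 and -3.03 for Sfrp2. Of the Fgf list 0 of 15 genes were higher and 5 lower, and of the Igf list 0 of 13 were higher and 1 lower, with Igf2 at 415 and 410.1 UPM.

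Of 180 transcription factor genes tested, 13 were at least 2-fold higher in the early myocytes and 54 lower, against 6.2% and 12% of all genes. Against the non-cycling committed cells the counts were 12 and 23 of 106, beside 7.68% and 5.49%. The higher ones were led by Casz1, a zinc finger factor, with 2.77 UPM in committed cells and 73.0 UPM in the members (log2 ratio 4.72, 3.93 to 5.63), and by Mef2c, a partner of the myogenic factors, with 18.8 and 392 UPM. Its relatives Mef2a and Mef2d stood at 37.6 and 312 UPM and at 11.5 and 55.5 UPM, so that the 3 Mef2 genes tested were all higher. Smyd1, a muscle methyltransferase that also serves sarcomere assembly, stood at 4.15 and 62.3 UPM, and Hdac11, a histone deacetylase, at 10.1 and 86.6 UPM.

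Several of these factors were at their highest in the early myocytes and lower in the Acta1 myocytes. Sox8, an SRY-box factor, stood at 7.71 UPM in committed cells, 49.3 in cycling Myog cells, 55.5 in the members and 5.16 in Acta1 myocytes. Snai1, a repressor best known from epithelial-mesenchymal transition, stood at 25.7, 91.9, 144 and 70.8 UPM, and Zbtb18, a zinc finger repressor, at 9.69, 100.5, 122 and 59.3 UPM. Mef2a ran the same way, with 154 UPM in Acta1 myocytes, while Mef2c continued upwards to 1637 UPM (1595 to 1680.2) there. Rxrg, a retinoid X receptor picked after its values were seen, lay at 23.8 UPM in the members and 244 UPM in Acta1 myocytes.

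The factors of the progenitor state were low. Pax3 stood at 112 UPM (103 to 122) in committed cells and 11.2 UPM (7.09 to 16.8) in the members, close to the 11.7 UPM of endothelial cells. Pax7 stood at 56.6 and 11.7 UPM, and Myf5, the earliest of the myogenic factors, at 149.9 and 25.3 UPM. Myf5 was then higher in Acta1 myocytes (57.9 UPM, 50.2 to 66.4), so that of the muscle classes the members held the lowest level. Eya1 (26.7 and 3.89 UPM) and Meox1 (109 and 33.1 UPM) were low as well. Of a list of muscle progenitor genes, 5 of the 6 tested were at least 2-fold lower, beside 12% of all genes, and the exception was Itm2a, with 2725 and 2316 UPM. Against the non-cycling committed cells 3 of 4 were lower, beside 5.49% of all genes.

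**Figure D3:**
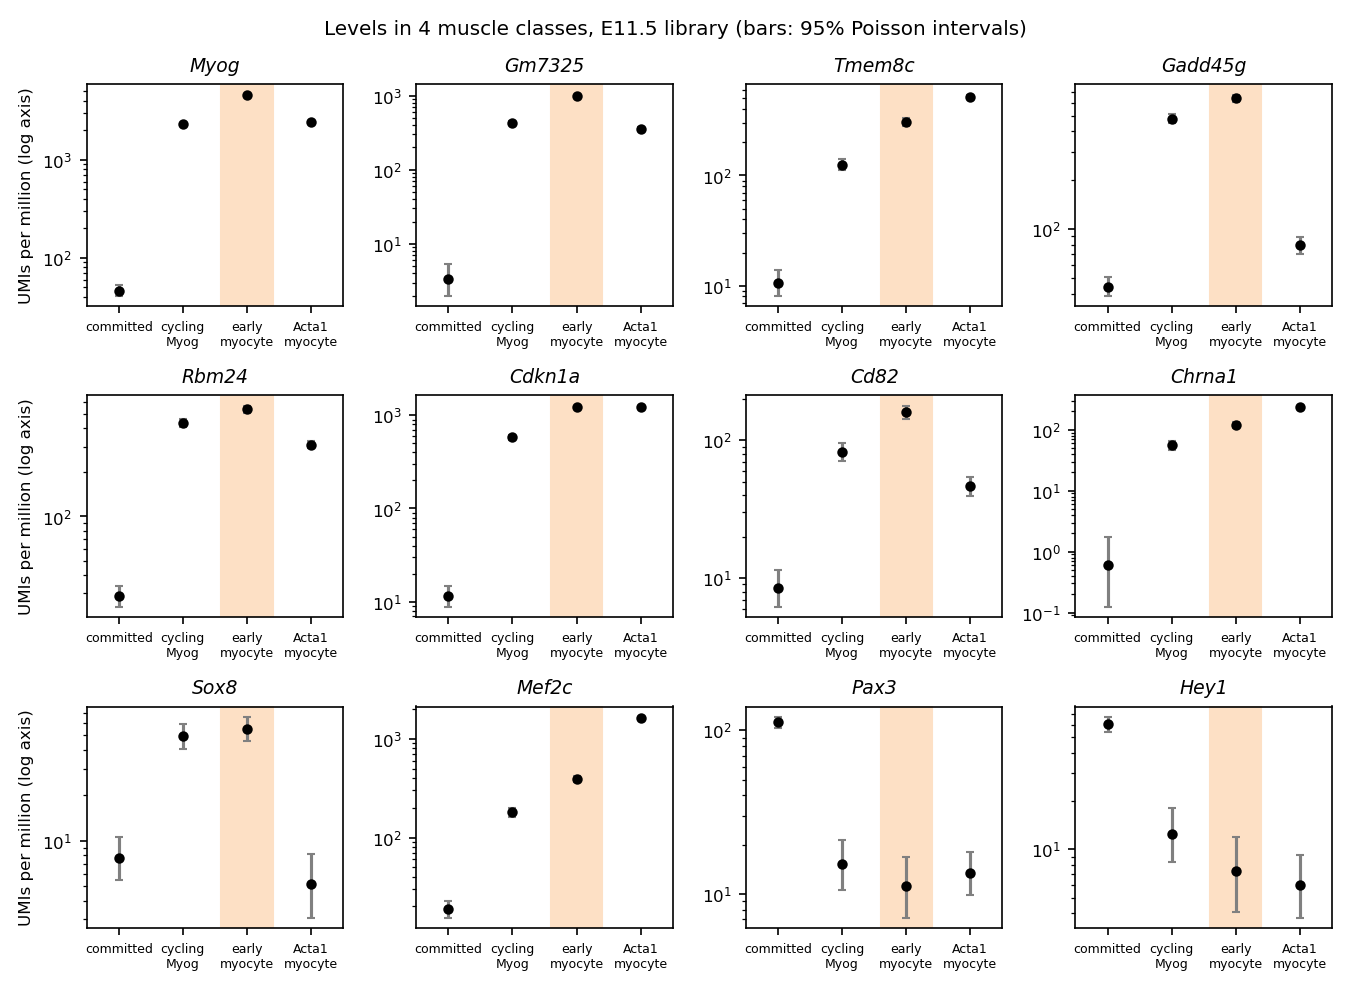
Levels in UPM (log axis) of 12 genes in committed cells, cycling Myog cells, early myocytes (shaded) and Acta1 myocytes, with exact 95% Poisson intervals. Gm7325, Gadd45g, Rbm24, Cd82 and Sox8 have their highest point in the early myocytes, Tmem8c, Chrna1 and Mef2c in the Acta1 myocytes, and Pax3 and Hey1 in the committed cells.

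Several genes of cell cycle exit were high in cells that the rule had chosen for low Top2a and Mki67. Of 13 tested, 7 were at least 2-fold higher and 2 lower, beside 6.2% and 12% of all genes, and against the non-cycling committed cells 8 and 3 of 12, beside 7.68% and 5.49%. The list holds 23 genes, and Cdkn1a, Rb1 and Gadd45a passed the limit of 100 UMIs through the members alone. The counts thus describe the genes that passed and not the whole list. Cdkn1a, which encodes the cyclin-dependent kinase inhibitor p21, stood at 11.5 UPM in committed cells, 19.5 in the non-cycling committed cells, 579 in cycling Myog cells and 1223 UPM (1176 to 1272) in the members. Its level in the members ranged from 0 to 68 UMIs per cell with a median of 15, while committed cells ranged from 0 to 8 with a median of 0. Cdkn1c, the imprinted inhibitor p57, was abundant throughout, with 3703 UPM in committed cells and 12848 UPM in the members, where it ranged from 38 to 440 UMIs per cell. Rb1, the retinoblastoma gene, stood at 5.93 and 96.8 UPM, Gadd45a at 10.5 and 71.0 UPM and the antiproliferative gene Btg1 at 85.2 and 472 UPM.

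The D cyclins, which drive entry into S phase, differed from one another. Ccnd1 stood at 100.3 and 23.3 UPM and Ccnd2 at 342 and 86.6 UPM, and were the lower genes of the list, while Ccnd3 stood at 376 and 429 UPM. Of 38 genes of DNA replication and mitosis, 36 were at least 2-fold lower than in committed cells, beside 12% of all genes. The rule and the committed class, in which 161 of 273 cells held at least 3 UMIs of Top2a and Mki67, fix this direction. Against the non-cycling committed cells 15 of 27 were lower, beside 5.49% of all genes. Aurkb, a mitotic kinase, stood at 102 UPM in committed cells, 4.55 UPM in the non-cycling ones and 4.86 UPM in the members.

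Sarcomere genes were counted at higher levels in the members. Of 33 genes tested, out of 57 on the list, 31 were at least 2-fold higher in the early myocytes and 0 lower, beside 6.2% and 12% of all genes. The median log2 ratio of the 33 was 4.27, against -0.16 over all genes. Many of the 33 passed the limit of 100 UMIs through the members alone, as did Unc45b with 3 and 171 UMIs and Klhl41 with 10 and 330. The count and the median thus describe the genes that passed and not the whole list. Actc1, the cardiac alpha-actin that embryonic skeletal muscle expresses first, stood at 50.6 and 5441 UPM (5341 to 5543) and was found in 133 of the 135 members. Myh3, the embryonic myosin heavy chain, stood at 2.18 and 411 UPM, Tnnt2, a troponin T, at 7.91 and 569 UPM, and Neb, which encodes the giant protein nebulin, at 9.89 and 319 UPM. The myosin chaperone Unc45b (0.593 and 83.2 UPM) and Klhl41, which stabilizes nebulin (1.98 and 161 UPM), were also counted. In Acta1 myocytes, a class cut on a sarcomeric actin, 39 of 48 sarcomere genes tested were at least 2-fold higher than in the members, beside 8.77% of all genes, among them Mylpf, the fast regulatory light chain, with 1807 UPM in the members and 15809.8 UPM there.

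Of other genes with the 10 highest ratios, Tex14, known from intercellular bridges of germ cells, held 2 UMIs in committed cells and 67.6 UPM in the members (log2 ratio 7.42, 5.54 to 10.48), and 22.4 UPM in Acta1 myocytes. Hfe2 (hemojuvelin, a Bmp co-receptor of muscle and liver) held 2 UMIs and 51.6 UPM, Kcnk13, a potassium channel, 2 UMIs and 50.1 UPM, and Sept4, a septin, 3 UMIs and 64.2 UPM. Each of these was found in 42.2% to 45.9% of the members and in under 1% of committed cells. In endothelial cells the shares were 2.74%, 0%, 1.37% and, for Sept4, 31.5%, and the small counts leave the ratios of these genes with wide intervals. Unlike Tex14, Hfe2 was higher in Acta1 myocytes than in the members, at 114.9 UPM. Sept4 stood at 77.1 UPM there, with a log2 ratio of 0.26 whose interval holds 0 (-0.04 to 0.58), and Kcnk13 at 43.8 UPM.

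Beside genes of mitosis, the lowest ratios over all genes included those of Lmo3, Hpgd, Efemp1 and Postn. Lmo3, a LIM-only cofactor, stood at 33.8 UPM in committed cells and at 1 UMI in the members (log2 ratio -6.12, -11.43 to -3.62), and Hpgd, which degrades prostaglandins, at 20.4 UPM and 1 UMI (-5.39, -10.71 to -2.88). Efemp1 (66.7 and 1.95 UPM) and Postn (111 and 3.41 UPM) encode matrix proteins, and their ratios against the non-cycling committed cells, -5.10 and -4.98, were as low. All 7 genes tested of a fibroblastic mesenchyme list were at least 2-fold lower, beside 12% of all genes. Against the non-cycling committed cells 4 of 5 were, beside 5.49%. The list had a summed level of 863 UPM in committed cells and 713 in the non-cycling ones. It stood at 198 UPM (180 to 219) in the members and 204 UPM (182 to 229) in endothelial cells. Its most abundant gene was Col3a1, a fibrillar collagen, with 252 and 69.6 UPM, and Tcf21 was at 0 in members and committed cells alike. The median committed cell held 12 UMIs of the list and the median member 2. Sclerotome genes stood at 107 and 48.2 UPM and tendon genes at 65.9 and 28.2 UPM, beside 51.5 and 17.2 UPM in endothelial cells. The part of other cells' RNA in these differences was not tested.

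Defining markers of most other cell types were at or near 0 in the members. Of 8 endothelial genes, 3 were detected with 7 UMIs in all, and Cdh5, Pecam1, Kdr, Tie1 and Tek were at 0. Of 12 neural genes, 6 were detected at 76.9 UPM against 90.8 UPM in committed cells, where 1 cell held 104 of the 459 UMIs, and 53.9 UPM in the non-cycling ones. Sox2, Sox1, Pax6, Hes5, Neurog1 and Neurog2 were at 0 in the members. The most abundant, the tubulin gene Tubb3, was higher in the members, with 12.5 UPM in committed cells and 57.4 UPM in the members (log2 ratio 2.20, 1.75 to 2.67), and was found in 30.4% of the members, 9.52% of committed cells and 1.37% of endothelial cells. Globin and other red blood genes stood at 63.7 UPM, near the 57.0 UPM of endothelial cells, with Alas2 at 0. The neural crest list stood at 90.5 UPM, nearly all Erbb3, a neuregulin receptor that muscle cells also express, with Sox10, Foxd3 and Ednrb at 0. White blood genes held 23 UMIs, mostly Laptm5, or 11.2 UPM (7.09 to 16.8) against 2.37 UPM (1.23 to 4.15) in committed cells, with Ptprc and Csf1r at 0. Heart genes held 4 UMIs, and intermediate mesoderm genes stood at 26.3 UPM, mostly Wt1, with Pax2, Pax8 and Lhx1 at 0.

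Epithelial genes were also higher than in committed cells, with 25.8 UPM (19.3 to 33.7) in the members, 12.1 in committed cells and 2.06 in endothelial cells, and 0 of the 8 genes at 0. Of their 53 UMIs in the members, 24 and 13 lay in 2 cells, and the most abundant gene was Krt5 (6.32 UPM); the part of these cells in the results was not tested. Scrublet, a doublet caller, marked at an expected rate of 8% 4 of the 135 members (2.96%) and 23 of 273 committed cells (8.42%). It marked 2 of 112 non-cycling committed cells (1.79%), 11 of 87 cycling Myog cells (12.6%) and 20 of 189 Acta1 myocytes (10.6%). At its default rate of 5% it marked 0 of the E11.5 barcodes. In the cycling Myog class 1 cell held 6213 of the 6308 UMIs of the red blood list.

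The members varied among themselves along their content of Acta1. The 94 members with 0 Acta1 UMIs, the 23 with 1 to 3 and the 18 with 4 to 9 had median depths of 13512.5, 15024 and 15693 UMIs. Mylpf stood at 586 UPM (546 to 627), 3173 and 5985 UPM in these steps, Myh3 at 168, 836 and 1079.9 UPM, and Mef2c at 241, 689.8 and 768 UPM. The fusion genes were higher in the cells with Acta1 too, with Gm7325 at 859.6, 1343 and 1217 UPM and Tmem8c at 221, 492 and 501 UPM. In contrast, Gadd45g stood at 717 (673 to 762), 535 and 381 UPM (315 to 456), Rbm24 at 581, 529 and 355 UPM, and Sox8 at 69.8, 21.3 and 26.0 UPM. Rgs16, at 211, 231 and 189 UPM, had intervals that overlapped throughout.

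**Figure D4:**
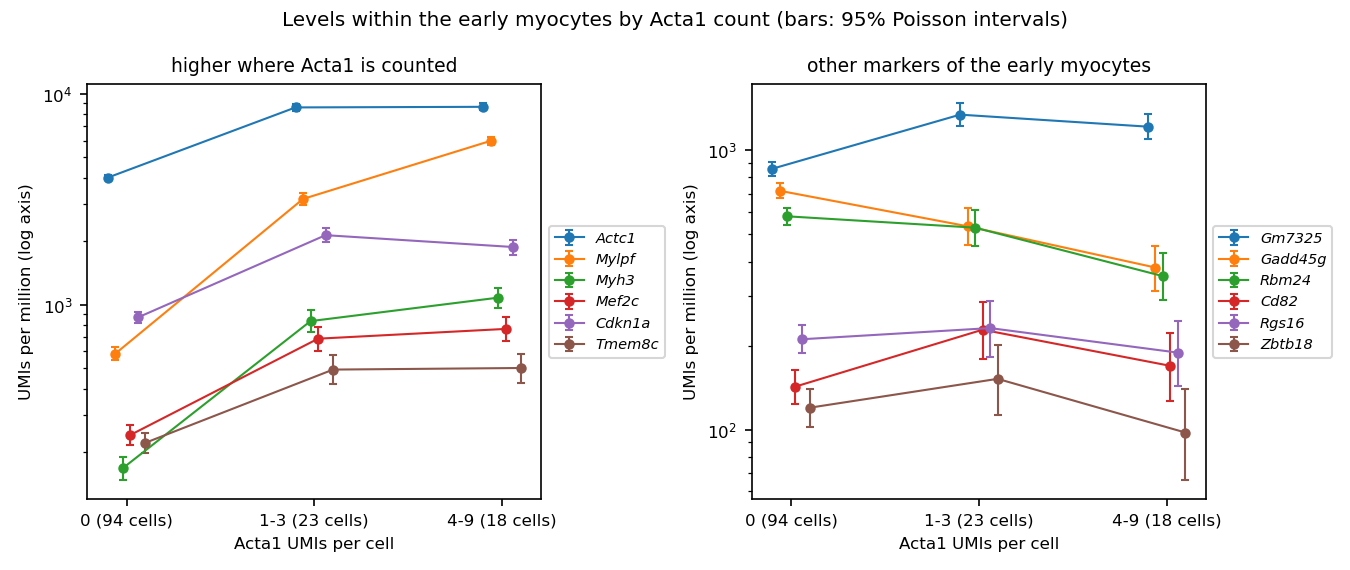
Levels in UPM (log axis, exact 95% Poisson intervals) within the early myocytes by Acta1 UMIs per cell. Left, Actc1, Mylpf, Myh3, Mef2c, Cdkn1a and Tmem8c, which are higher in cells with Acta1 (Mylpf from 586 to 5985 UPM); right, Gm7325 and other markers, of which Gadd45g is lower in cells with Acta1 (717 to 381 UPM).

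Grouped by their Myog count, 34 members with 20 to 39 UMIs, 53 with 40 to 79 and 48 with 80 or more differed in several genes. Gm7325 stood at 315 UPM (267 to 369) in the first group and 1387 UPM (1307 to 1471) in the last, and Cdkn1a at 445, 992 and 1908 UPM over the groups. Tex14 stood at 6.17, 47.3 and 124 UPM. Gadd45g (601, 582 and 711 UPM) and Rbm24 (517, 620.3 and 475 UPM) lacked such an order, and Dlk1 ran the other way, with 56.5 UPM in the middle group and 33.4 UPM in the last. Depth was higher in the last group, with a median of 15999 UMIs against 13860.5 and 13178.

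Over 133 members thinned to 5000 UMIs, Spearman coefficients were taken as a description of cells that share 1 library. Gm7325 went with Actc1 (0.65), Myog (0.56), Mylpf (0.53) and Cdkn1a (0.49), and Actc1 with Cdkn1a (0.69) and Myh3 (0.68). The coefficient of Gm7325 with Gadd45g was -0.10 and with Rbm24 -0.02, and those with Acta1 were 0.12 for Gm7325, 0.15 for Myog and -0.29 for Gadd45g, so that the higher level of Gm7325 in members with Acta1 had no counterpart of like size in the ranks. Counts per thinned cell are small for most of these genes, and coefficients near 0 carry no more than that.

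**Figure D5:**
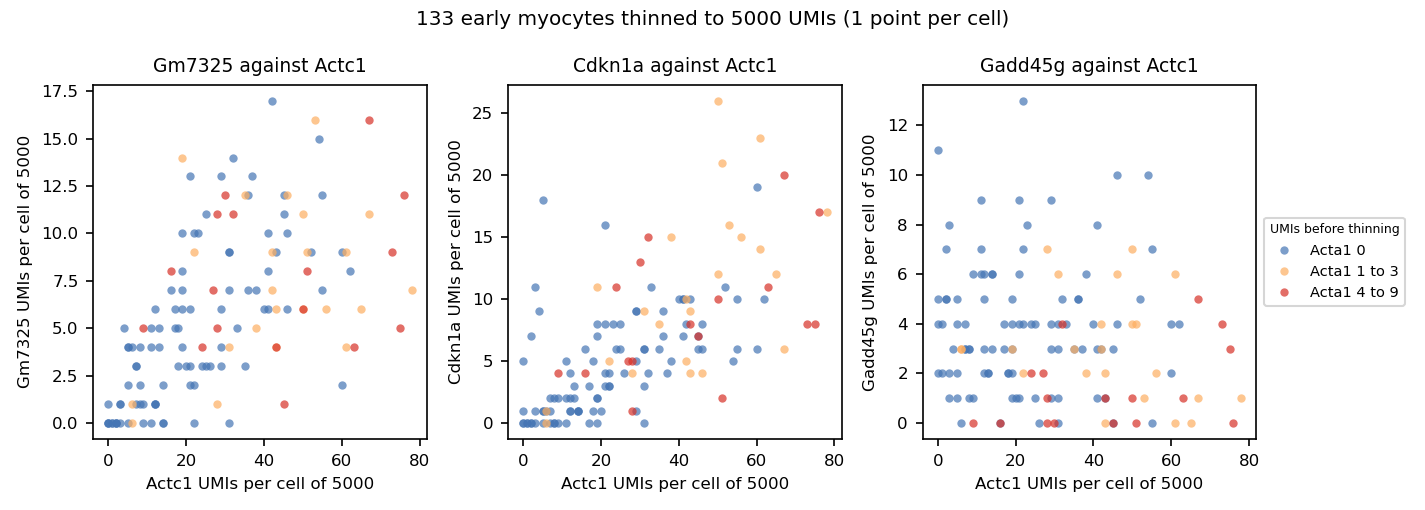
UMIs per cell of Gm7325, Cdkn1a and Gadd45g (y axes) against Actc1 (x axes) in the 133 early myocytes thinned to 5000 UMIs, coloured by their Acta1 UMIs before thinning. Gm7325 and Cdkn1a are higher in cells with more Actc1 (Spearman 0.65 and 0.69), and Gadd45g is spread over the whole range (-0.12).

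Some genes differed across the limits of the rule and others did not. Just inside the Myog limit, 9 members with 20 to 24 UMIs held Gm7325 at 383 UPM (271 to 526) and Rbm24 at 484 UPM, and 10 cells with 15 to 19 UMIs just outside it held 176 UPM (109 to 269.7) and 538 UPM. Just inside the Acta1 limit, 7 members with 7 to 9 UMIs held Gm7325 at 1118 UPM, and 16 cells with 10 to 14 UMIs outside it at 1115 UPM. Of the members, 42 held 1 or 2 UMIs of Top2a and Mki67, with Gm7325 at 737 UPM, and 7 cells with 3 or 4 UMIs outside that limit held it at 453 UPM.

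Set beside the Acta1 myocytes, 505 of 5759 genes were at least 2-fold higher there than in the early myocytes (8.77%) and 146 at least 2-fold lower (2.54%). This comparison and the one with committed cells share the early myocytes, so only their own values are given. Gadd45g, at 637 UPM in the members and 79.4 UPM in Acta1 myocytes, was lower by a log2 ratio of 3.01 (2.82 to 3.20), Rgs16 by 1.93, Cd82 by 1.79, Gm7325 by 1.49 and Dll1 by 1.45. Rbm24 was lower by 0.80 and Cdkn1a stood at the same level (1223 and 1226 UPM). The surface gene list had 23 of 81 genes higher in Acta1 myocytes and 3 lower.

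Set beside the cycling Myog cells, 121 of 5018 genes were at least 2-fold higher in the early myocytes (2.41%) and 240 lower (4.78%). Gm7325 differed by a log2 ratio of 1.20 (1.09 to 1.31), from 431 to 990.4 UPM, Cdkn1a by 1.08 and Chrna1 by 1.12. Gadd45g (479 and 637 UPM, log2 ratio 0.41), Rbm24 (0.31) and Rgs16 (0.23) differed less, and Dll1 (59.2 and 66.6 UPM) and Sox8 (49.3 and 55.5 UPM) had intervals of the ratio that hold 0.

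At E9.5 the same rule found 3 of 9851 cells (0.0305%, 0.00628% to 0.0890%), with 4152, 24742 and 32510 UMIs. They held 25, 33 and 31 UMIs of Myog, 1, 7 and 6 of Gm7325 and 2, 3 and 6 of Myf5, and Myod1 was at 1, 0 and 0 UMIs, whereas no E11.5 member lacked it. Over all E9.5 cells kept, Myod1 held 14 UMIs in 9 cells and Myog 549 UMIs in 63 cells, and 0 cells met the rule of committed cells, which needs Myod1, so the main comparison could not be made at that stage. With 3 cells, their levels are given as counts only.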

How the data were processed

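The authors aligned the reads of both libraries to mm10 with Cell Ranger 3.0.1, and the deposited values are raw UMI counts per gene and barcode. They were used as deposited, for cells with at least 200 and fewer than 6500 genes and under 15% mitochondrial UMIs. With 1 library per stage, no test was made. UMIs were summed per class, and exact Poisson, ratio and Clopper-Pearson 95% intervals were computed with scipy 1.17.1, numpy 2.4.6 and pandas 2.3.3 in Python 3.11.15. A gene was called when it differed at least 2-fold and held at least 100 UMIs in both classes together. In each list, a gene can pass this limit through 1 class alone. Where 1 class held 0 UMIs, a floor of 3 counts over the class gave a bound. The computation of the ratios was run on simulated data: over 6746 genes drawn for early myocytes and committed cells, the median absolute error of the log2 ratio was 0.108. The class sums were drawn as Poisson counts, as the intervals assume, without spread between cells. This error thus covers counting only and says nothing about cells that differ. Scrublet (in scanpy 1.11.5, expected rate 8%, chosen after the default of 5% called 0 of the E11.5 barcodes) scored doublets, which were left out only in an alternative; it called 4.00% of E11.5 barcodes. Plots used matplotlib 3.10.9. Gene positions come from GENCODE M21 (94 of 94 named genes matched).

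Named genes are the 8 highest and 5 lowest ratios of the surface, signalling and transcription factor lists, the 10 highest and 10 lowest of all genes, the rule and marker genes, Tmem8c, and the 4 largest of each other list. Other list members named (such as Jam3, Cdh15, Cdh2, Itga4, Itgb1, Ryr1, Rapsn, Notch1, Notch3, Hes1, Igf2, Mef2d, Rxrg, Meox1, Itm2a, Btg1, the D cyclins, Tnnt2, Neb, Ptgfrn, Kirrel, Adgrb3 and Col3a1) were picked with their values in view. The members and lists were chosen with earlier results of these data known. Alternatives varied the reference cells, depth, weighting of cells, doublets, the Myog, Acta1 and Myod1 limits and the filters. The RefSeq promoter table gave the sequences of Myog, Gadd45g, Rbm24 and Chrna1. The E9.5 library was used for the last comparison only. Some genes are not reported here.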

Additional observations from a re-analysis of the deposited data

How the results depend on the processing

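No paired analysis was possible because each stage has 1 library. The count of lower genes was 810 of 6746 tested against all committed cells, 242 of 4412 against the non-cycling ones and 354 of 4385 against those with at least 5 Myod1 UMIs, where both the reference and the number of genes tested differ. With at least 20 or 500 UMIs per gene it was 1799 of 10509 (17.1%) and 166 of 2099 (7.91%). The higher genes, 418 in the report, became 842 (8.01%) and 99 (4.72%), so the shares over all genes depend on this filter. With at least 40 Myog UMIs the rule chose 101 cells. The log2 ratio of Gm7325, 8.20, was 5.99 as a mean over cells, where the highest committed cell stood at 3610 UPM. It lay within its counting interval of 7.52 to 8.98 under each other alternative, with the lowest value, 7.57, against the non-cycling cells. Of 91 other named genes past 2-fold, 82 stayed on their side against the non-cycling cells and 89 to 91 under each other alternative; of all 93, the ratio moved past its counting interval for 34 against the non-cycling cells, 27 on thinning, 27 with at least 5 Myod1 UMIs and 19 as a mean over cells. Signs turned for Acta1 as a mean over cells (-0.97), where 1 committed cell held 27 UMIs of it, for Aurkb against the non-cycling cells (0.10) and for the neural gene Stmn2 (-2.23 against all committed cells) without Scrublet calls (0.10) or with at least 5 Myod1 UMIs (0.15). Leaving out committed cells with 10 or more Acta1 UMIs, added after seeing the data, gave 418 higher and 811 lower genes. Depth limits genes with few UMIs, whose intervals span several units on the log2 scale, and 1 library of pooled embryos stands behind every value.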

Other observations

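Further gene groups of the E11.5 early myocytes are described here against the committed cells, beside the 6.2% of all genes tested that were at least 2-fold higher and the 12% that were lower. Of 24 RNA-binding genes tested, 6 were at least 2-fold higher in the early myocytes, led by Rbm24 (28.5 and 539 UPM), and 2 were lower, among them Ptbp1, a repressor of neuronal and muscle exons, with 155 and 37.9 UPM. Of 12 genes of muscle metabolism, 4 were higher and 1 lower. Pgam2, the muscle phosphoglycerate mutase, stood at 9.49 and 159 UPM, Ckb, brain-type creatine kinase, at 66.1 and 869 UPM, and Eno3, muscle enolase, at 70.6 and 213 UPM. Pgam2 and Eno3 were higher again in Acta1 myocytes (683 and 882 UPM), whereas Ckb stood at 795 UPM there. Of 15 long noncoding and imprinted genes, 3 were higher and 2 lower. Among them, Meg3, a long noncoding RNA, stood at 499 and 1116 UPM, and Dlk1 and Meg3, neighbours in 1 imprinted cluster, lay on opposite sides of the committed level. In Acta1 myocytes both were above it, with 1197 UPM for Dlk1 and 4091 UPM for Meg3.

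The smaller signalling groups are given by their genes tested. Of 17 Bmp and Tgf-beta genes, 3 were higher in the early myocytes and 4 lower, of 4 Hedgehog genes 0 and 2, of 8 retinoic acid genes 1 and 1, of 13 genes of a mixed list of other factors 1 and 4 (the higher one Vgll2, which is not secreted), and of 9 regulators of G proteins and small GTPases 1 and 2. Against the non-cycling committed cells the Bmp and Tgf-beta counts were 3 and 2 of 12, and those of Hedgehog genes 0 and 0 of 3. Retinoic acid genes had 0 and 1 of 6, the mixed list 1 and 0 of 8, and the G protein and GTPase regulators 1 and 0 of 6. Of all genes 7.68% were higher and 5.49% lower against that reference. Id2, an inhibitor of basic helix-loop-helix factors and a Bmp target, stood at 219 UPM in all committed cells and 55.9 UPM in the members.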
